A study of Homo sapiens with 4 samples.

Results

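H3K9ac regions were examined around the starts of 6 genes of base excision repair: UNG, MPG, APEX1, POLB, PARP1 and XRCC1. All regions that reached within 5 kb of a gene start on hg19 were taken, which gave 31 of the 66131 regions in the data, 19 of 26828 in the control library and 12 of 39303 in the library with RBBP4 shRNA. The genes were selected on these same lists: POLB was chosen by the presence of a strong region in the control library and its absence from the other, and the other genes as members of its pathway. The calls and scores below are therefore descriptions, and none is tested. The samples were T98G cells, an established human glioblastoma line, at passage 4, transduced with a lentivirus for a control shRNA (shNT) or for an RBBP4 shRNA (shRBBP4). RBBP4 is a histone-binding subunit of histone deacetylase and other chromatin complexes. Chromatin immunoprecipitation and sequencing targeted H3K9ac, acetylation of histone H3 at lysine 9, which marks active promoters, with 1 H3K9ac library and 1 input library for each shRNA. The study compares H3K9ac along the genome between control and RBBP4 shRNA cells. With 1 library per shRNA no difference has a replicate check, the read depth is unknown, and the inputs, the level of RBBP4 and markers of the cell line were not analysed here.

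Base excision repair removes small base lesions such as uracil, alkylated bases and oxidised bases. A DNA glycosylase (UNG for uracil, MPG for alkylated purines) cuts the base from its sugar, APEX1 nicks the strand at the empty site, POLB fills the gap, PARP1 senses the nick, and XRCC1 is the scaffold on which the later steps assemble. Alkylated bases are among the lesions that temozolomide, the standard drug for glioblastoma, leaves in DNA.

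Regions were present at 6 of 6 starts in shNT and at 4 of 6 in shRBBP4. APEX1, UNG, PARP1 and XRCC1 had regions in both libraries, POLB and MPG in shNT alone, and 0 starts in shRBBP4 alone. Over the whole lists, 7.21% of the 12429 shNT clusters (regions of the same library no more than 1 kb apart, joined) had no shRBBP4 region within 5 kb, and 30.5% of the 17155 shRBBP4 clusters had no shNT region within 5 kb. POLB was picked for its missing counterpart, so nothing is read from the count of 2 in 6 against that 7.21%. The shRBBP4 list is the longer by a factor of 1.465, and both genes without a call there lie on chromosomes where that excess was small. Chromosome 8, with POLB, had 1239 regions in shNT against 1422 in shRBBP4 (ratio 1.15), and chromosome 16, with MPG, a ratio of 1.17. The ratio was 1.34 on chromosome 1 (PARP1), 1.46 on chromosome 12 (UNG), 1.62 on chromosome 19 (XRCC1) and 2.02 on chromosome 14 (APEX1). The part of these chromosome-wide differences in the calls at POLB and MPG was not tested. POLB was chosen for its missing call, so nothing is read from where these 2 genes lie. A difference in copy number and a difference in acetylation cannot be told apart without the inputs.

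**Figure D1:**
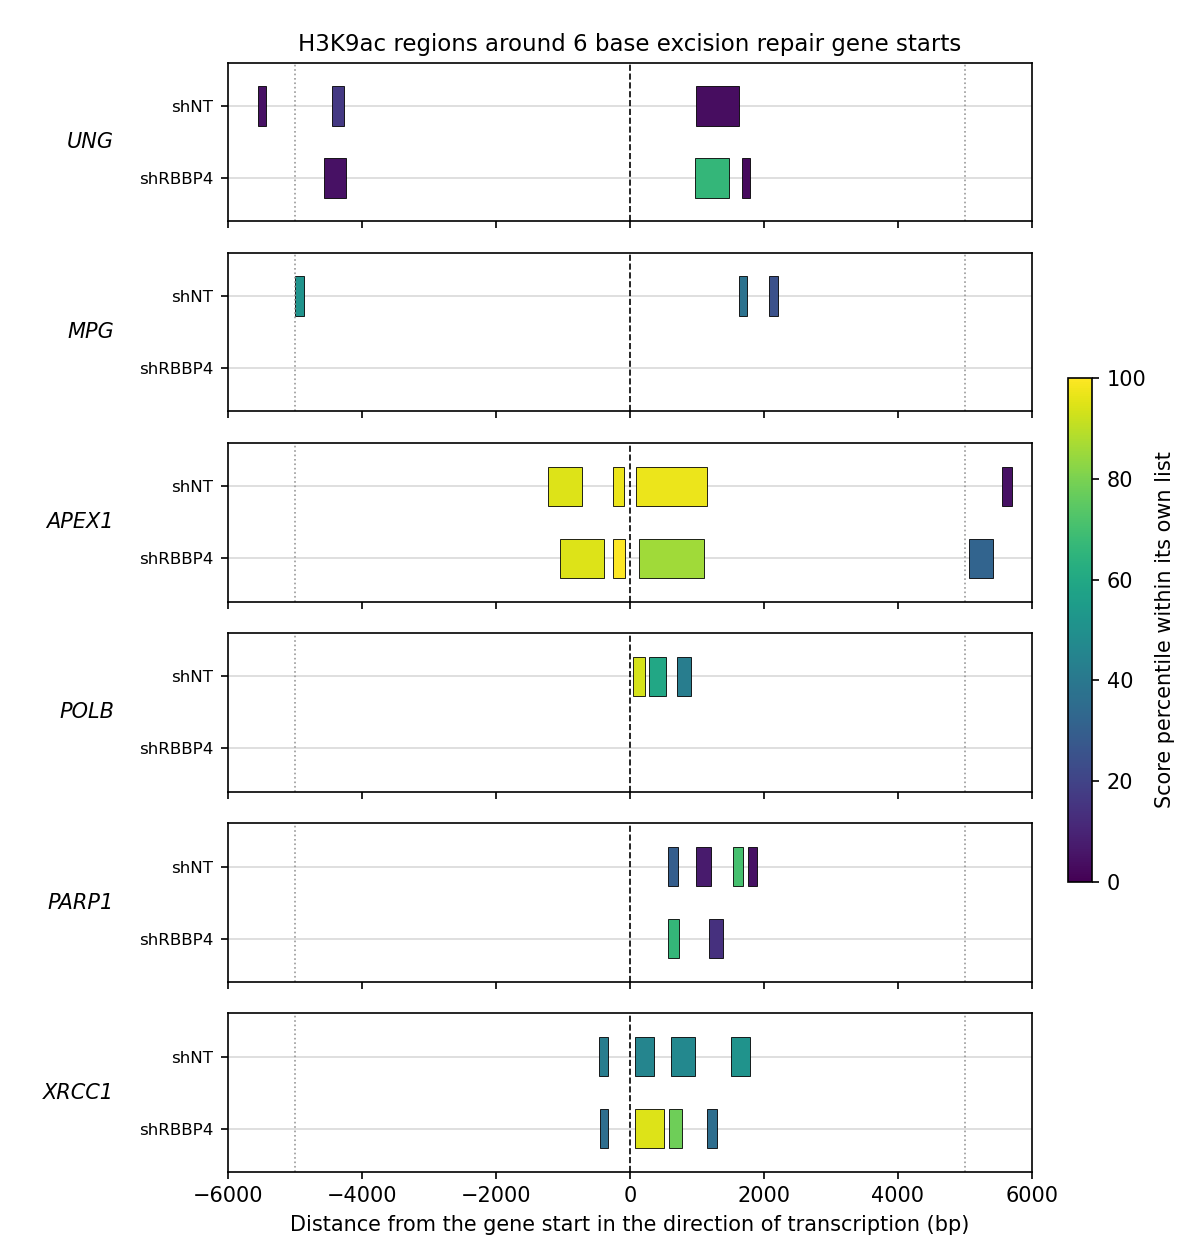
Position of every H3K9ac region around the 6 gene starts, with distance from the start in the direction of transcription on the horizontal axis (bp) and 1 row per library; the colour gives the score percentile of the region within its own list, the dashed line marks the start and the dotted lines the limits at 5 kb. POLB and MPG have regions in the shNT row alone, and no region in either row covers a start.

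The start base itself lay outside every region in both libraries, at 0 of 6 genes in shNT and 0 of 6 in shRBBP4. Most of these regions lay on the transcribed side. In shNT 14 of 19 regions were downstream of the start and 5 upstream, and in shRBBP4 8 of 12 were downstream and 4 upstream. The 14 include the 3 regions of POLB, the gene chosen for a strong region in shNT. Each gene gave several regions, and no share over other starts was counted. At APEX1 the uncalled stretch around the start was 186 bp wide in shNT and 215 bp in shRBBP4, and at XRCC1 it was 416 and 409 bp. At these genes alone, both libraries had a region within 500 bp of the start on each side.

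The promoter sequences set the frame for these positions. They come from the RefSeq promoter table, which is on GRCh38.p14, another build than the hg19 of the regions, and no position was converted between the builds. The table held entries for 5 of the 6 genes, and POLB was not matched. The sequence printed for each gene is the 250 bases before its listed start, 5′ to 3′ along the gene. The sequences let the motifs of APEX1 and XRCC1, with regions close to the start, be set beside those of PARP1 and UNG. In PARP1 and UNG the nearest region lay farther from the start used here. RefSeq lists a second UNG start 575 bp downstream of the first and nearer to the downstream regions. The UNG promoter printed is thus not the one nearest to those regions. MPG is printed too, but its sequence precedes a start 1218 bp downstream of the first and nearer to its downstream regions. The MPG distances given here, counted from the hg19 start, are thus not distances from the printed promoter. Capitals mark exact matches, on either strand, to the GC box, the CCAAT box, the E-box and the NRF1 motif. The GC box was searched as GGGCGG. The E-box was searched as CACGTG.

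APEX1, chr14:20454976-20455225 (plus strand): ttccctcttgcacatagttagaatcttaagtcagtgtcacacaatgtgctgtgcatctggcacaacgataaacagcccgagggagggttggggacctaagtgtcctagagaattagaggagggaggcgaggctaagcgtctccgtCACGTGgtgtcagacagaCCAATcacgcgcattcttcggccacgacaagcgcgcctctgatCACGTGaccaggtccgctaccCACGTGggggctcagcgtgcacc
XRCC1, chr19:43575528-43575777 (minus strand): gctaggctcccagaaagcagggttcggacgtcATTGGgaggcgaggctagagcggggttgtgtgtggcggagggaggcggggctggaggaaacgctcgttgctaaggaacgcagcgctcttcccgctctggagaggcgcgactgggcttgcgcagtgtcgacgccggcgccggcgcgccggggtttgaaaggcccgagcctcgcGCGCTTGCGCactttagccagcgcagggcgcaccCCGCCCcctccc
PARP1, chr1:226408094-226408343 (minus strand): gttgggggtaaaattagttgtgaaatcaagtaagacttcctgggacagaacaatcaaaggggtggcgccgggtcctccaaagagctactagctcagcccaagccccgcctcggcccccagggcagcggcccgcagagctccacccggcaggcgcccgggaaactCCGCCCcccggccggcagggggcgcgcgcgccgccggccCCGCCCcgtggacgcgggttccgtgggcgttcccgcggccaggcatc
UNG, chr12:109097347-109097596 (plus strand): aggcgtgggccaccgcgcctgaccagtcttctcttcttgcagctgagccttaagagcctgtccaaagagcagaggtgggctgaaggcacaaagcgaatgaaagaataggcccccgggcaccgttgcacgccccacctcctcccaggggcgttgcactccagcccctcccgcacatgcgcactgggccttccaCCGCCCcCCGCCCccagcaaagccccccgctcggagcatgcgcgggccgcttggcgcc
MPG, chr16:77975-78224 (plus strand): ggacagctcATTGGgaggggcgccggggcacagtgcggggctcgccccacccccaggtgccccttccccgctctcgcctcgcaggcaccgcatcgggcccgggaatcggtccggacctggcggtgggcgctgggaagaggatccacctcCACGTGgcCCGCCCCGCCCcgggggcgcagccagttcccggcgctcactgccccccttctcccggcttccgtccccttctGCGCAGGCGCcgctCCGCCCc

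The 5 promoters differed in their motifs. APEX1 had 3 copies of CACGTG, 105, 44 and 23 bases before the start, beside a CCAAT box, and no GC box. CACGTG was present in 6.34% of the 35116 promoters of the table over the same length, and it was added to the search after the sequences had been seen. PARP1 and the UNG promoter printed above had 2 GC boxes each and none of the other motifs. The table's second UNG entry, not printed but nearer to the downstream regions, had 3 GC boxes, 3 CCAAT boxes and 2 copies of CACGTG. MPG had 3 GC boxes, of which 2 overlapped by 1 base, and 1 copy of CACGTG, and XRCC1 had 1 GC box. GGGCGG was present in 42.6% of all promoters. The NRF1 motif was found in MPG and XRCC1, and in 5.07% of all promoters. CCAAT was found in APEX1, MPG, XRCC1 and the second UNG entry, and in 32.0% of all. TGACGTCA (the cAMP response element), CCGGAAGT (an ETS motif) and TATAAA (the TATA box) had no match in these windows, the second UNG entry included, against 1.65%, 3.42% and 10.7% of all promoters. The GC content was 56.4% in APEX1, the lowest of the 5, and 68.0% in UNG, 70.0% in XRCC1, 70.4% in PARP1 and 76.8% in MPG, against a median of 58.0% over the table. XRCC1 held 30 CpG dinucleotides, MPG 27, PARP1 26, UNG 18 and APEX1 16, against a median of 11. The gene with the lowest GC content and the fewest CpG of these 5, APEX1, was the one whose top H3K9ac region scored highest among them in each list. This is 1 gene, its regions were not assigned between APEX1 and the neighbouring OSGEP, and no relation of composition to H3K9ac was tested.

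The authors' score per region has no stated scale, so each score was used only as a percentile within its own list, where 100 is the highest and tied scores share their mean rank. Ties are common: 1957 shNT regions share the score of 7.48 at the middle of the list, among them regions at MPG and XRCC1. Percentiles from lists of unequal length are set side by side below and do not measure gain or loss.

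**Figure D2:**
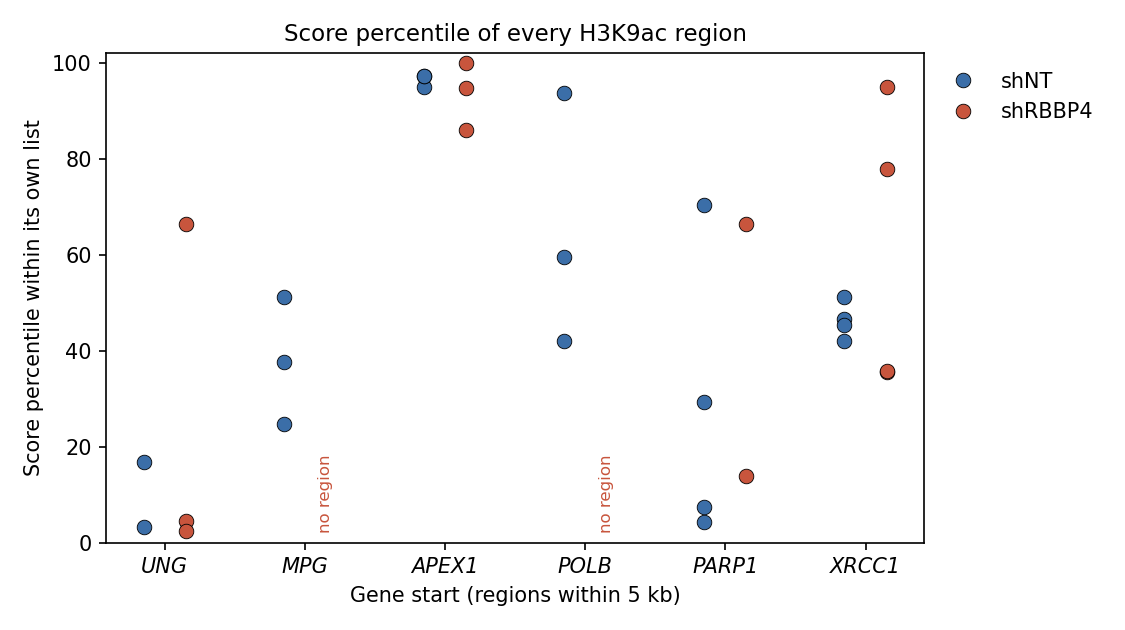
Score percentile within its own list (vertical axis) of every region within 5 kb of each gene start (horizontal axis), with shNT in blue and shRBBP4 in red. The regions of APEX1 lie between 85.9 and 99.9 in both libraries, those of UNG and PARP1 are mostly low, and POLB and MPG have none in shRBBP4.

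UNG, the glycosylase that removes uracil, had regions only away from the start used here in both libraries. They were low in the shNT list, and 1 of 3 stood above the middle of the shRBBP4 list. The nearest region began 990 bp downstream of the start in shNT and 971 bp downstream in shRBBP4. In shNT this region, on chromosome 12 from 109536389 to 109537026, was 638 bp wide, at percentile 91.7 of the list by width but 3.31 by score. In shRBBP4 its counterpart, from 109536370 to 109536870, was 501 bp wide and stood at percentile 66.3 by score, followed by a further region of 116 bp at percentile 2.35. Width and score thus ranked the shNT region at opposite ends of its list. RefSeq lists a second UNG start 575 bp downstream of the first, and the downstream regions lie nearer to that second start. The nuclear and the mitochondrial form of UNG are known to use different starts.

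A further UNG region lay upstream in both libraries. It ran from 4453 to 4264 bp before the start in shNT, at percentile 16.7, and from 4574 to 4236 bp in shRBBP4, at percentile 4.40. The shRBBP4 region covered 100% of the shNT one. In the RefSeq table the start of ALKBH2, which repairs alkylated bases by direct reversal, is 4125 bp upstream of the UNG start on the opposite strand, a distance measured on GRCh38.p14. By these distances the upstream region lies nearer to the ALKBH2 start than to the UNG start. It was not assigned to either gene and is counted here by distance alone. A shNT region just outside the limit, 5555 to 5433 bp upstream, stood at percentile 4.36.

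MPG, the glycosylase for alkylated purines, had 3 narrow regions in shNT and 0 in shRBBP4. Downstream of the start lay regions of 123 bp (chromosome 16, 128639 to 128761) and 129 bp (129099 to 129227), at percentiles 37.7 and 24.8. Upstream, a region of 137 bp from 122017 to 122153 stood at percentile 51.2. It only just met the limit of 5 kb, beginning 5001 bp and ending 4865 bp before the start, while a region of 161 bp that ended 7588 bp before it was left out. In the RefSeq table RHBDF1 starts 4376 bp upstream of MPG on the opposite strand, and a second MPG start, the one whose promoter is printed above, lies 1218 bp downstream of the first. The upstream region, the highest-scoring of the 3, lies nearer to the RHBDF1 start than to that of MPG. It was not assigned to either gene and is counted here by distance alone.

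None of the MPG regions was close to a shRBBP4 region. The nearest shRBBP4 regions lay 22.7 kb on one side of the MPG start and 60.7 kb on the other. The gap from the nearest MPG region, the upstream one, was 17.7 kb, and 3.00% of all shNT regions had a larger gap. All 3 regions were narrow, with the widest at percentile 20.8 of the shNT list by width. Within 50 kb on each side of the start there were 6 regions in shNT and 1 in shRBBP4, within 100 kb 8 and 4, and within 500 kb 25 and 19. The shNT counts include the 3 MPG regions, and each distance contains the smaller ones. The start lies at base 127018, so the chromosome end cuts the window of 500 kb on one side. These counts were not tested, and nothing is read from them.

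APEX1, the nuclease that nicks the strand at the empty site, had in each library the highest-scoring region of the 6 genes. It also had the widest region and the longest total length. Its regions overlapped between the libraries. Each library had 3. The upstream region ran from 1220 to 711 bp before the start in shNT and from 1041 to 384 bp in shRBBP4, and these stood at percentiles 94.9 and 94.7. The middle region, only 164 bp wide in shNT (chromosome 14, 20923036 to 20923199) and 176 bp in shRBBP4 (20923034 to 20923209), stood at percentile 97.2 in shNT and at 99.9 in shRBBP4, where it ranked 35 of 39303. The downstream region was 1047 bp wide in shNT and 976 bp in shRBBP4, at percentiles 97.1 and 85.9.

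The order of the 3 APEX1 regions thus differed between the lists. In shNT they lay within 94.9 to 97.2, and in shRBBP4 the middle region ranked 35 and the downstream one 5373. Of the shNT regions, the shRBBP4 regions covered 64.9% of the upstream, 100% of the middle and 93.2% of the downstream one. The total length of the regions was 1721 bp in shNT and 1810 bp in shRBBP4, a ratio of 1.05. The start of OSGEP, an enzyme of transfer RNA modification, is 414 bp upstream of the APEX1 start on the opposite strand in RefSeq, so these regions lie around a pair of divergent starts and were not assigned to either gene. Just beyond the limit, shRBBP4 had a region from 5057 to 5416 bp downstream, at percentile 32.0, and shNT one from 5545 to 5697 bp, at percentile 4.36.

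**Figure D3:**
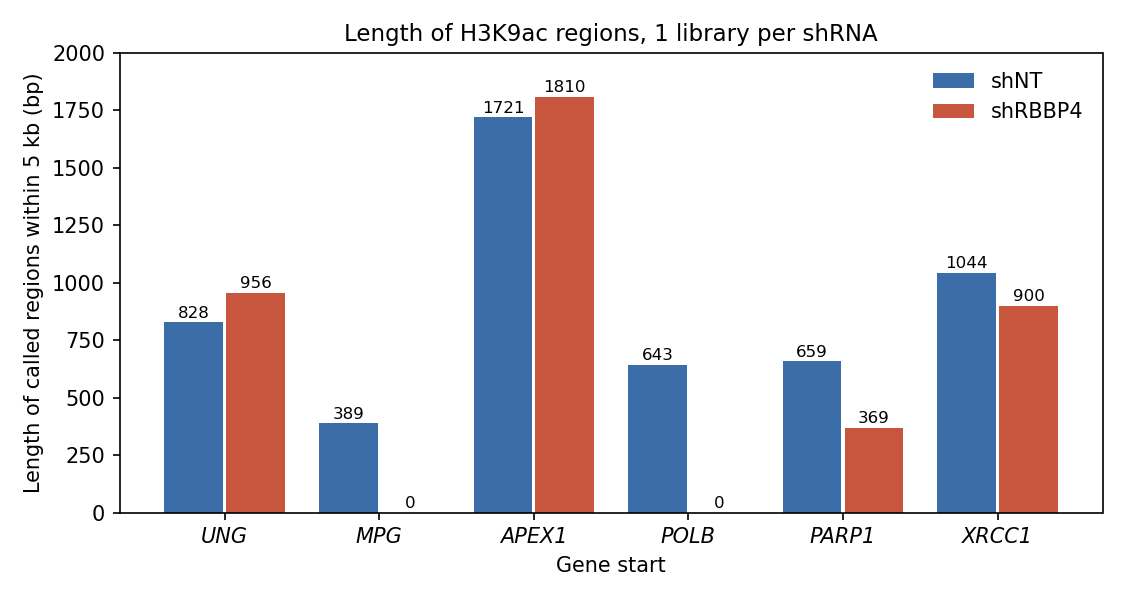
Total length in bp of the regions that reach within 5 kb of each gene start (vertical axis, from 0), for the shNT and shRBBP4 libraries, 1 library each and hence without error bars. APEX1 has the longest total in both, with 1721 and 1810 bp, and POLB and MPG have 0 bp in shRBBP4.

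POLB, the polymerase that fills the gap, had 3 regions in a row directly downstream of its start in shNT and none in shRBBP4. The strongest, on chromosome 8 from 42196014 to 42196193, began 41 bp after the start, was 180 bp wide and stood at percentile 93.6 of the shNT list, rank 1649 of 26828. It was followed by a region of 258 bp from 42196253 to 42196510 at percentile 59.5 and by one of 205 bp from 42196678 to 42196882 at percentile 42.0. The percentile was lower with each step away from the start. Together they covered 643 bp of an 869 bp cluster that ended 909 bp after the start. In RefSeq, on GRCh38.p14, a pseudogene, RPL5P23, also reaches within 5 kb of the POLB start, and the regions are counted by distance alone. The nearest shRBBP4 regions lay 67.2 kb on one side of the start and 200.1 kb on the other.

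Few strong shNT regions were isolated from shRBBP4 in this way. Of 26828 shNT regions, 1058 had no shRBBP4 region within 5 kb (3.94%), and of the 2699 above percentile 90 there were 2. The POLB region was the lower of these 2 by score, the other being a region on chromosome 1 from 155579440 to 155579727 at percentile 94.2. A gap to shRBBP4 larger than that of POLB was found for 1.54% of shNT regions. Of all 18106 clusters made from both lists together, 1315 held shNT regions alone (7.26%), and 32 of these 1315 held 3 or more regions. Of the 1315, 17 covered more length than the POLB cluster and 58 had a longer span. POLB was chosen for this contrast, so these ranks describe it and support nothing.

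**Figure D4:**
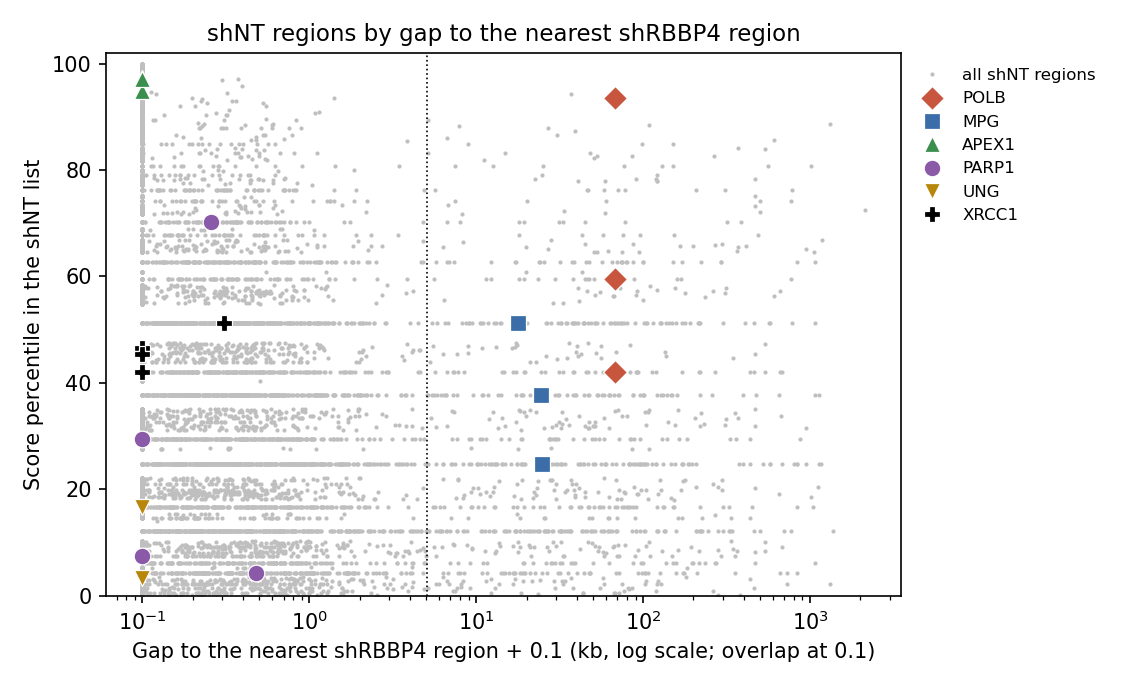
Each grey point is 1 of the 26828 shNT regions, placed by its gap to the nearest shRBBP4 region (horizontal axis in kb, log scale, 0.1 kb added) and by its score percentile in the shNT list (vertical axis); the coloured symbols are the regions of the 6 genes and the dotted line marks 5 kb. Among regions above percentile 90, those to the right of that line are the POLB region at 93.6 and a region at 94.2.

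The stretch around POLB was sparse in both lists. Outside the 3 regions, the nearest shNT regions lay 66.0 kb on one side of the start and 54.0 kb on the other. Within 50 kb on each side of the start there were 3 regions in shNT and 0 in shRBBP4, and within 100 kb 8 and 2. Within 500 kb the order was the other way, with 12 in shNT and 16 in shRBBP4. The lower number in shRBBP4 was thus seen within 100 kb of POLB and not within 500 kb, but the shNT counts include the 3 regions at the POLB start. Within 50 kb those 3 are all the shNT regions. POLB was chosen for that contrast, so nothing is read from these counts. These distances were chosen after the data had been seen.

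PARP1, which senses the nick and builds poly(ADP-ribose) chains, had regions on the transcribed side alone, most of them low in their list. In shNT there were 4, between 565 and 1896 bp after the start, with widths of 134 to 219 bp and percentiles of 29.4, 7.37, 70.3 and 4.36 in order of distance. In shRBBP4 there were 2, of 162 bp at percentile 66.3 and of 207 bp at percentile 13.9. The region nearest to the start had the same place in both, 565 to 722 bp after it in shNT (chromosome 1, 226595079 to 226595236) and 567 to 728 bp in shRBBP4 (226595073 to 226595234). The strongest shNT region, 1538 to 1685 bp after the start, had no overlapping counterpart. The total length was 659 bp in shNT and 369 bp in shRBBP4, a ratio of 0.560. In lists of equal length, where the shRBBP4 list is cut to its highest-scoring regions, it was 162 bp in shRBBP4 and the ratio 0.246. On the upstream side of the PARP1 start neither library had a region within 10 kb.

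XRCC1, the scaffold, had 4 regions in each library with similar total lengths, 1044 bp in shNT and 900 bp in shRBBP4. The region just downstream of the start, 81 to 359 bp after it in shNT (chromosome 19, 44079371 to 44079649), stood at percentile 45.4. Its shRBBP4 counterpart, 78 to 508 bp after the start (44079222 to 44079652), was 431 bp wide against 279 bp and stood at percentile 94.9. The next region stood at percentile 46.5 in shNT and 77.7 in shRBBP4. The upstream region was alike in both, from 461 to 336 bp before the start at percentile 42.0 in shNT and from 447 to 332 bp at percentile 35.8 in shRBBP4. The farthest region of each library, at percentile 51.2 in shNT and 35.6 in shRBBP4, had no overlapping counterpart. In RefSeq, on GRCh38.p14, the body of the gene PINLYP also reaches within 5 kb of the XRCC1 start. The regions were not assigned to either gene and are counted by distance alone.

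In shNT the 4 XRCC1 regions thus lay between percentiles 42.0 and 51.2, and in shRBBP4 they ranged from 35.6 to 94.9. The highest percentiles of the 2 libraries were 43.7 points apart. Among all 10454 clusters held by both libraries the median distance was 13.7 points, and in 11.8% the libraries lay at least as far apart as at XRCC1. For the downstream UNG cluster the distance was 63.0 points, reached by 3.17% of clusters. For the upstream UNG cluster it was 12.3 points, reached by 52.9%. For PARP1 it was 4.00 points and for APEX1 2.68 points, reached by 78.6% and 84.3%. In lists of equal length the distance was 19.7 points at PARP1, 41.3 at XRCC1 and 2.64 at APEX1. The downstream UNG region of shRBBP4 then stood at percentile 50.7 in place of 66.3, so the distance of 63.0 points was smaller in those lists. Around XRCC1 shRBBP4 had the more regions, 21 against 11 within 50 kb on each side, and around APEX1 9 against 4. Around UNG it had 3 against 4 at that distance, 4 against 4 within 100 kb and 49 against 38 within 500 kb. Around PARP1 it had 2 against 4, 4 against 7 and 17 against 20. Over the whole chromosome the ratio of shRBBP4 to shNT regions was 1.62 for XRCC1, 2.02 for APEX1, 1.46 for UNG and 1.34 for PARP1. The counts around the genes were not tested against these ratios, and nothing is read from them.

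The share of regions with a counterpart was counted over the 6 genes, with the limit that the counts are small and that regions of a gene can share a promoter. The upstream regions of UNG and MPG, nearer to the starts of ALKBH2 and RHBDF1, are included by distance alone. In shNT 10 of 19 overlapped a shRBBP4 region by at least 1 bp (52.6%, against 77.0% of all shNT regions). The 3 POLB regions among them were chosen for having no counterpart, so nothing is read from that share, and without POLB it was 10 of 16. At the 4 genes called in both libraries it was 10 of 13, and all 13 had a shRBBP4 region within 1 kb. Those 4 genes were taken because both libraries had regions there, which favours a counterpart. The share within 1 kb was not counted over the whole list, so nothing is read from these counts. In shRBBP4 10 of 12 overlapped a shNT region (83.3%, against 50.04% of all shRBBP4 regions). The regions of the whole list were not limited to gene starts, so nothing is read from that difference either. When both lists were joined, the starts had 8 clusters, of which 5 were held by both libraries (57.7% of all clusters), 3 by shNT alone (7.26% of all, and 15.1% in lists of equal length) and 0 by shRBBP4 alone (35.0% of all). Of the 3, 1 is the POLB cluster, chosen for being held by shNT alone. The clusters of the whole lists were not limited to gene starts, so nothing is read from these counts beside those shares.

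The shared clusters were shorter in shRBBP4 in 3 of 5 cases. The ratio of covered length, shRBBP4 over shNT, was 1.05 at APEX1, 0.862 at XRCC1, 0.560 at PARP1, and 0.967 and 1.08 in the downstream and upstream clusters of UNG. Its median was 0.967 in these 5 and 1.33 over all 10454 clusters of both libraries, with quartiles of 0.958 and 2.002. All 5 lay below that overall median, but the upstream UNG cluster only because of its shNT region outside the limit of 5 kb. With regions inside the limit alone, that cluster had 339 bp in shRBBP4 against 190 bp in shNT, a ratio of 1.78, and 4 of the 5 lay below the median. The length was at least 1.5 times higher in shRBBP4 in 0 of the 5 by whole clusters and in 1 of the 5, upstream UNG, by regions inside the limit (41.5% of all). It was at least 1.5 times lower in 1 of the 5, PARP1 (9.15% of all). The 5 clusters come from 4 genes, and the clusters of the whole lists were not limited to gene starts. Nothing is therefore read from the 5 beside the overall median and shares. In lists of equal length the total at UNG was 501 bp in shRBBP4, a ratio of 0.605 to the 828 bp of shNT, whereas in the full lists it was 956 bp, a ratio of 1.15. Other genes of base excision repair, such as the remaining glycosylases and the ligases, were not placed, because no gene annotation of hg19 was used here.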

How the data were processed

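T98G cells with a control shRNA or an RBBP4 shRNA were profiled for H3K9ac, with 1 H3K9ac and 1 input library each. The region lists of the 2 H3K9ac libraries were used. Per the file headers, both lists name macs2 and PE in the track line. The builds hg19 and GRCh37 and the tools SICER, Picard, BWA and bcl2fastq 2.15.0 are listed per the submitters' processing notes, in roles not given in the sources used here. The caller and its threshold were not settled. The last deposited column is the authors' score per region, with a lowest value of 2.09 in shNT and 2.003 in shRBBP4. The numbering of the regions has 0 gaps in either list.

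The gene starts were given with the choice of the genes, and the genes, the motifs and the limits were chosen with earlier results of these data known. Regions that reach within 5 kb of a start were taken whole, with positions counted from 1. The genes named are those 6. Clusters join regions across gaps of up to 1 kb. Shares of all regions or clusters have exact Clopper-Pearson intervals at 95% in the tables, which cover counting error only. For the 3.94% of shNT regions without a shRBBP4 region within 5 kb the interval was 3.71 to 4.18%. No test between the libraries was made. Strand of transcription came from RefSeq for 5 genes and from general knowledge for POLB. The overlap, distance and joining functions were tested on simulated data. Alternatives were other window sizes, stricter score limits, lists of equal length, ranks by width, other overlap rules and other gaps. The tools were pandas 2.3.3, numpy 2.4.6, matplotlib 3.10.9 and scipy 1.17.1 under Python 3.11.15.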

Additional observations from a re-analysis of the deposited data

How the results depend on the processing

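No paired analysis was possible because each shRNA has 1 H3K9ac library. Unknown read depth limits every comparison of the lists. The number of starts with a region was 6 in shNT and 4 in shRBBP4, and it was 4 in shRBBP4 under all 5 alternatives (windows of 1, 2 and 10 kb, scores at or above the list's median, lists of equal length). In shNT it was 5 with a window of 1 kb, which leaves out MPG, and 5 at or above the median score, which leaves out UNG. The number of regions near the starts in shNT fell from 19 to 12 with a window of 1 kb and to 8 at or above the median score, and in shRBBP4 from 12 to 7 at or above the median score, fewer by construction. Of the 12 shRBBP4 regions near the starts, 100% had a shNT region within 1 kb, a share not counted over the whole list. The share of clusters held by both libraries was 52.1% with a gap of 500 bp, 61.2% with a gap of 2 kb and 61.0% when the lists had equal length. In the same order, shNT alone held 8.98%, 6.21% and 15.1%. In lists of equal length PARP1 and UNG each had 1 shRBBP4 region left, at percentile 50.7, and POLB had 3 shNT regions and 0 in shRBBP4. The length at PARP1 and UNG in shRBBP4 then changed from 369 to 162 bp and from 956 to 501 bp. The count of UNG cluster length inside 5 kb and the share without POLB were added after seeing the data. Ranked by width, the highest percentile of POLB was 60.8 in place of 93.6. Over single genes, 24 of 80 values moved under an alternative (by over 1.5 times for a length, by 5 points or more for a percentile), and 0 of the 6 genes gained or lost its call in shRBBP4 under the 5 alternatives named first.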
